A study of Mus musculus with 6 samples.

Results

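A set of 10 genes of the pericentral Wnt programme of the liver was followed in RNA from whole liver: Glul, Slc1a2, Rhbg, Oat, Axin2, Lgr5, Tbx3, Rnf43, Znrf3 and Rspo3. They were taken by symbol as known beta-catenin targets and regulators of hepatocytes around the central vein, and make up 10 of the 54532 genes counted. The choice was made with earlier results of these data known, so it was not independent of them. All 10 had enough counts to be tested. The samples were livers of 6 mice on a C57BL/6J/Rj background that were kept for 10 days on a Lieber-DeCarli liquid diet in which ethanol made up 6% of the volume. A gavage of 5 g ethanol per kg of body weight followed on day 11, and livers were taken 9 hours after it. The 3 knockout mice were LysMcre/+ Cd44flox/flox and the 3 littermate controls were LysM+/+ Cd44flox/flox, so both groups carried floxed Cd44 and both were exposed to ethanol. LysM-Cre is expressed from the lysozyme gene Lyz2 of myeloid cells, whereas the genes described here are expressed mainly in hepatocytes or, for Rspo3, in central vein endothelium. The sources used here do not give age or sex. Livers without ethanol or with Cre alone were not analysed here, so effects of Cre and of Cd44 loss cannot be told apart.

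Hepatocytes of the liver lobule divide their work by position. Endothelial cells of the central vein secrete Wnt ligands and the R-spondin Rspo3, which keep beta-catenin signalling high in the nearest hepatocytes. There beta-catenin and its TCF partners switch on enzymes and transporters that trap ammonia as glutamine, together with feedback regulators that adjust the signal. The comparison addressed how loss of Cd44, a hyaluronan receptor, from myeloid cells affects the ethanol-exposed liver.

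Promoter windows are shown here for 3 of the genes that rose, 2 metabolic targets and the feedback regulator Axin2, because they differ in base composition and in whether they hold a TCF motif. Sequences are from RefSeq on GRCm38.p6, 5′ to 3′ on the plus strand, on which all 3 genes lie, and end at or before the annotated start. The RefSeq start of Slc1a2, at base 102706438, lies inside the longer GENCODE gene model given below. Capitals mark the TCF motif, here on the reverse strand.
Glul, chr1:153899679-153899925: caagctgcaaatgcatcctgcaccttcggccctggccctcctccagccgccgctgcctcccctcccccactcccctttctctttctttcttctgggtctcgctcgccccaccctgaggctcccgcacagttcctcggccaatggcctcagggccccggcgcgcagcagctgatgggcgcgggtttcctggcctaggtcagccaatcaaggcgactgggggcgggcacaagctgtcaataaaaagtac
Slc1a2, chr2:102706188-102706355: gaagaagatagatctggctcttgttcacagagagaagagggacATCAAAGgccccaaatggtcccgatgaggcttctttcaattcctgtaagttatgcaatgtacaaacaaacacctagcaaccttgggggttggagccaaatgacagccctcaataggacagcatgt
Axin2, chr11:108920099-108920348: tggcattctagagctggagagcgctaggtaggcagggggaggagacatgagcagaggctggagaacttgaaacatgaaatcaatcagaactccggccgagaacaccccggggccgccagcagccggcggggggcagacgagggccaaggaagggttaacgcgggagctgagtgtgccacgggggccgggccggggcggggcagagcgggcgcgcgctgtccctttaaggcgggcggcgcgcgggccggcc

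RefSeq windows were matched for 5 of the 10 genes (Glul, Slc1a2, Oat, Axin2 and Rnf43, the last with 2 windows). The letters CTTTGAT and CTTTGAA were searched on both strands of the 250 bases before each start. They occurred in 1 of the 6 windows of these genes, that of Slc1a2, and in 2457 of 32851 windows of all genes (7.48%). The Slc1a2 match was CTTTGAT on the minus strand, printed as ATCAAAG on the plus strand, where its leftmost base lies at −207. The absence of these letters elsewhere says nothing about binding outside the window. GC content of the 250 bases was 69.2% for Axin2, 64.8% for Glul and 60.0% for Oat, against 44.8% for Slc1a2 and 44.4% and 45.2% for the Rnf43 windows. Its median over the windows of all genes was 52.4%.

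Of the 10 genes, 7 were higher in the knockout livers by edgeR's quasi-likelihood test at an adjusted p under 0.05, where 11.9% of the 14758 genes tested were higher. None was lower (0 at an unadjusted p under 0.05, and 0 by DESeq2 and by limma-voom), against 13.1% of all genes tested. In either direction 25.0% of all genes passed, 1751 higher and 1933 lower. Without control liver 2 these counts were 1086 and 1189, without knockout liver 1 they were 1113 and 1183, and with libraries scaled by their totals 904 and 3698. The metabolic targets Glul, Slc1a2, Rhbg and Oat and the signalling targets Axin2, Tbx3 and Rnf43 rose, while Lgr5, Znrf3 and Rspo3 did not pass. For 9 of the 10 genes every knockout liver stood above every control, as it did for 21.4% of all genes tested, and Znrf3 was the exception. The median log2 difference, knockout against control, was 1.65 over the 10 genes and −0.01 over all genes tested. Levels are CPM, read counts scaled to a common library size by TMM (the trimmed mean of M values), fold changes are on the same scaling, and ± gives the SD with n = 3 livers per group. In whole liver, more cells of a type and more RNA per cell cannot be told apart.

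**Figure D1:**
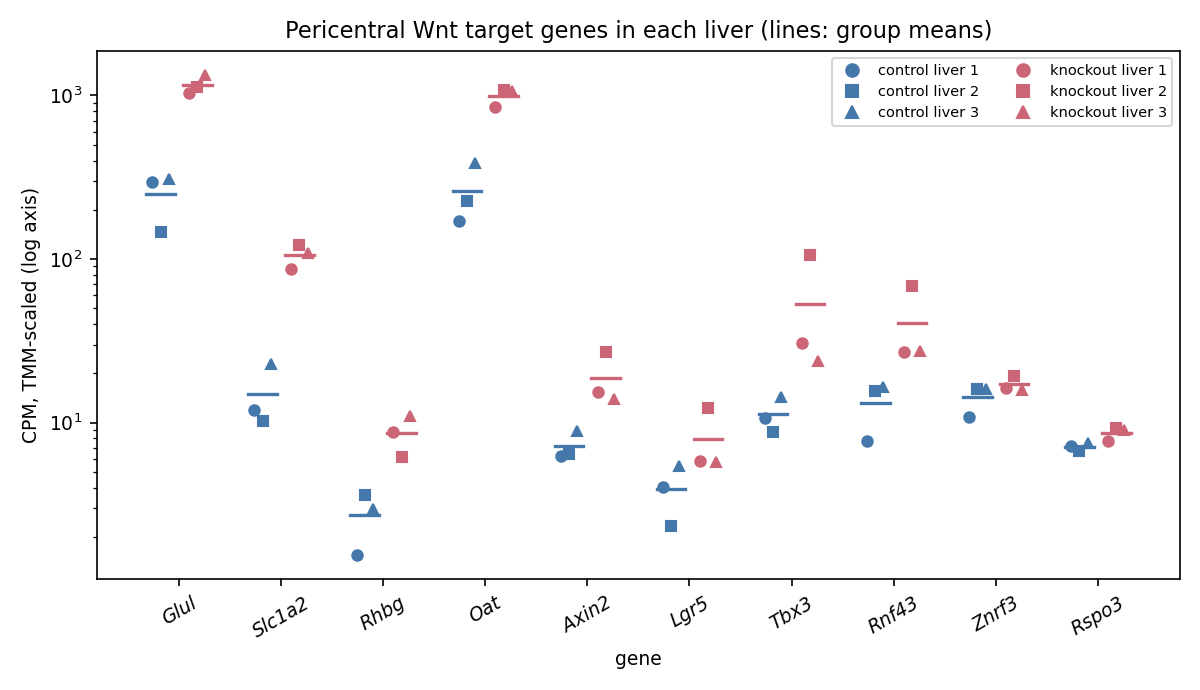
CPM (log axis) of the 10 genes in each of the 6 livers, with controls in blue, knockouts in red, a symbol for each liver number and lines at the group means. For every gene but Znrf3 the knockout points lie above all control points, and knockout liver 2 stands apart for Tbx3 (106 CPM) and Rnf43 (68.1 CPM).

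Glul encodes glutamine synthetase, which joins ammonia to glutamate in the last hepatocytes before the central vein. The gene (ENSMUSG00000026473, chr1:153899944-153909723, plus strand, GRCm38) stood at 298, 146 and 308 CPM in control livers 1 to 3. Its level was 1034, 1119 and 1338 CPM in knockout livers 1 to 3. The lowest knockout liver was above the highest control, and control liver 2 lay below the other controls. The means were 250.5 ± 91.1 and 1164 ± 157 CPM, a 4.64-fold rise (log2 2.22, SE 0.28, edgeR adjusted p = 0.00149). Teddm2 overlaps the 5′ end of Glul on the opposite strand and held only 3 to 6 counts per control and 17 to 27 per knockout, against at least 3010 counts for Glul. The counting may not have used strand, so the small Teddm2 counts are uncertain.

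Slc1a2 encodes GLT-1, a glutamate transporter that supplies the substrate of glutamine synthetase in pericentral cells. This gene (ENSMUSG00000005089, chr2:102658659-102790784, plus strand) had the largest fold among the 10. Control livers held 11.9, 10.2 and 22.9 CPM, and knockout livers 86.5, 122 and 110 CPM. All knockout livers were several times above control liver 3, the highest control. The group means were 15.01 ± 6.90 and 106 ± 18.1 CPM, 7.06-fold apart (log2 2.82, SE 0.30, edgeR adjusted p = 0.000869).

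Slc1a2 is also a neighbour of the deleted gene: 20357 bases separate it from Cd44 on chromosome 2. Levels of the other protein-coding genes counted within 500 kb of Cd44 were therefore set beside that of Slc1a2, a window chosen after the values were seen. Pdhx (log2 0.40, adjusted p = 0.0266) and Apip (log2 0.62, adjusted p = 0.0155) were higher by edgeR, by far less than Slc1a2. Trim44, Fjx1, Pamr1 and Ehf did not pass, with log2 values of 0.11, −2.24, −0.54 and −0.31 (edgeR adjusted p = 0.478, 0.0598, 0.0514 and 0.606). Every knockout liver stood below every control for Pamr1 and for Fjx1, which held only 1 to 47 counts per liver. For Pdhx and Apip every knockout stood above every control. Of the 14758 genes tested, 3314 had every knockout below every control and 3157 had every knockout above. Cd44 itself fell from 31.3 ± 4.35 to 2.35 ± 0.579 CPM (log2 −3.73, SE 0.20, edgeR adjusted p = 9.07e-05), lower in every knockout, and the floxed allele was present in both groups. The part of the position beside Cd44 in the rise of Slc1a2 was not tested.

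Oat encodes ornithine aminotransferase, a mitochondrial enzyme that turns ornithine towards glutamate. Control livers held 171, 225 and 384 CPM of Oat (ENSMUSG00000030934, chr7:132557478-132576398, minus strand), and knockout livers held 847, 1083 and 1063 CPM. The groups were clearly separated, with control liver 3 the nearest to the knockouts. Mean Oat rose from 260.03 ± 111 to 998 ± 131 CPM, or 3.84-fold (log2 1.94, SE 0.28, edgeR adjusted p = 0.00281).

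Rhbg encodes an ammonia transporter of the Rh glycoprotein family. It had the fewest counts of the metabolic targets, with 39, 75 and 68 in the controls and 182, 128 and 221 in the knockouts. These counts for Rhbg (ENSMUSG00000104445, chr3:88242874-88254709, minus strand) correspond to 1.55, 3.63 and 2.96 CPM and to 8.73, 6.16 and 10.9 CPM. Knockout liver 2 was the lowest knockout here, unlike for most of the other genes. Its mean rose from 2.71 ± 1.06 to 8.59 ± 2.37 CPM, 3.18-fold (log2 1.67, SE 0.33, edgeR adjusted p = 0.00917). All 4 metabolic targets therefore passed the test in the same direction, and their calls held at an adjusted p under 0.05 in all 6 fits that left out 1 liver.

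Axin2, a scaffold of the complex that degrades beta-catenin, is a direct target widely read as a measure of the pathway. It rose (ENSMUSG00000000142, chr11:108920349-108950783, plus strand) from 6.24, 6.38 and 8.91 CPM in the controls to 15.4, 26.9 and 13.9 CPM in the knockouts. Knockout liver 2 was the highest, and the groups did not overlap. Means of 7.18 ± 1.51 and 18.7 ± 7.11 CPM gave a 2.61-fold difference (log2 1.38, SE 0.27, edgeR adjusted p = 0.00858).

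Rnf43 and Znrf3 encode related membrane ubiquitin ligases that remove Frizzled receptors from the cell surface, and both are known as feedback inhibitors. For Rnf43 (ENSMUSG00000034177, chr11:87662722-87735539, plus strand) the 3 controls had 7.66, 15.7 and 16.4 CPM and the 3 knockouts 27.2, 68.1 and 27.3 CPM. Control liver 1 was low and knockout liver 2 high, while the other 2 knockouts were close together. The means were 13.3 ± 4.86 and 40.9 ± 23.6 CPM, a 3.09-fold rise (log2 1.63, SE 0.41, edgeR adjusted p = 0.0229). Without knockout liver 2 the log2 value was 1.05 (adjusted p = 0.0359), and the call was lost without control liver 1 (adjusted p = 0.06) or control liver 2 (adjusted p = 0.0546).

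Znrf3 (ENSMUSG00000041961, chr11:5276324-5444847, minus strand) had values of 10.8, 16.1 and 16.1 CPM among controls and of 16.3, 19.2 and 15.9 CPM among knockouts. The groups overlapped, since 2 controls exceeded knockout liver 3. Its means of 14.3 ± 3.09 and 17.2 ± 1.82 CPM were 1.20-fold apart and did not pass (log2 0.26, SE 0.18, edgeR adjusted p = 0.319). The log2 value of Znrf3 was 0.00 when libraries were scaled by their totals and −0.14 when they were scaled on hepatocyte markers. The difference in response between Rnf43 and Znrf3 was not tested.

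Tbx3 encodes a T-box transcription factor that beta-catenin signalling induces in pericentral hepatocytes. Its levels (ENSMUSG00000018604, chr5:119670669-119684724, plus strand) were 10.6, 8.75 and 14.4 CPM in the controls and 30.6, 106 and 23.8 CPM in the knockouts. The groups did not overlap, but knockout liver 2 was more than 3 times as high as either of the other knockouts. The means of 11.2 ± 2.85 and 53.3 ± 45.5 CPM gave a 4.74-fold rise (log2 2.24, SE 0.53, edgeR adjusted p = 0.0178). Without knockout liver 2 the log2 value was 1.28 (adjusted p = 0.00609). Tbx3 did not pass without control liver 1 (adjusted p = 0.0567) or control liver 2 (adjusted p = 0.0664). The antisense gene Tbx3os1 overlaps its 5′ end and had 31, 5 and 32 counts in the controls and 32, 90 and 42 in the knockouts, with its own highest value in knockout liver 2 (adjusted p = 0.108).

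Lgr5 encodes a receptor for R-spondins and, in the liver, marks hepatocytes next to the central vein. Control livers had 4.01, 2.32 and 5.39 CPM of Lgr5 (ENSMUSG00000020140, chr10:115450311-115587780, minus strand), and knockout livers had 5.80, 12.3 and 5.77 CPM. Control liver 3 came close to 2 of the knockouts, and knockout liver 2 stood apart. Lgr5 did not pass by edgeR (3.91 ± 1.54 and 7.95 ± 3.74 CPM, log2 1.02, SE 0.38, adjusted p = 0.0868). It passed with DESeq2 (log2 1.03, adjusted p = 0.0319) and without the filter on low counts (adjusted p = 0.0154), and stood at a log2 value of 0.57 without knockout liver 2 (adjusted p = 0.255).

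Rspo3, the secreted ligand that strengthens Wnt signals by binding Lgr receptors and Rnf43 and Znrf3, was the member with the least spread among controls. Its levels (ENSMUSG00000019880, chr10:29452416-29535867, minus strand) were 7.15, 6.67 and 7.48 CPM in the controls and 7.67, 9.29 and 8.97 CPM in the knockouts. The groups were separated by a narrow gap between control liver 3 and knockout liver 1. Means of 7.10 ± 0.405 and 8.64 ± 0.856 CPM did not pass the test (log2 0.28, SE 0.15, edgeR adjusted p = 0.212). With scaling by library totals the log2 value of Rspo3 was 0.03, and with scaling on hepatocyte markers it was −0.11.

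**Figure D2:**
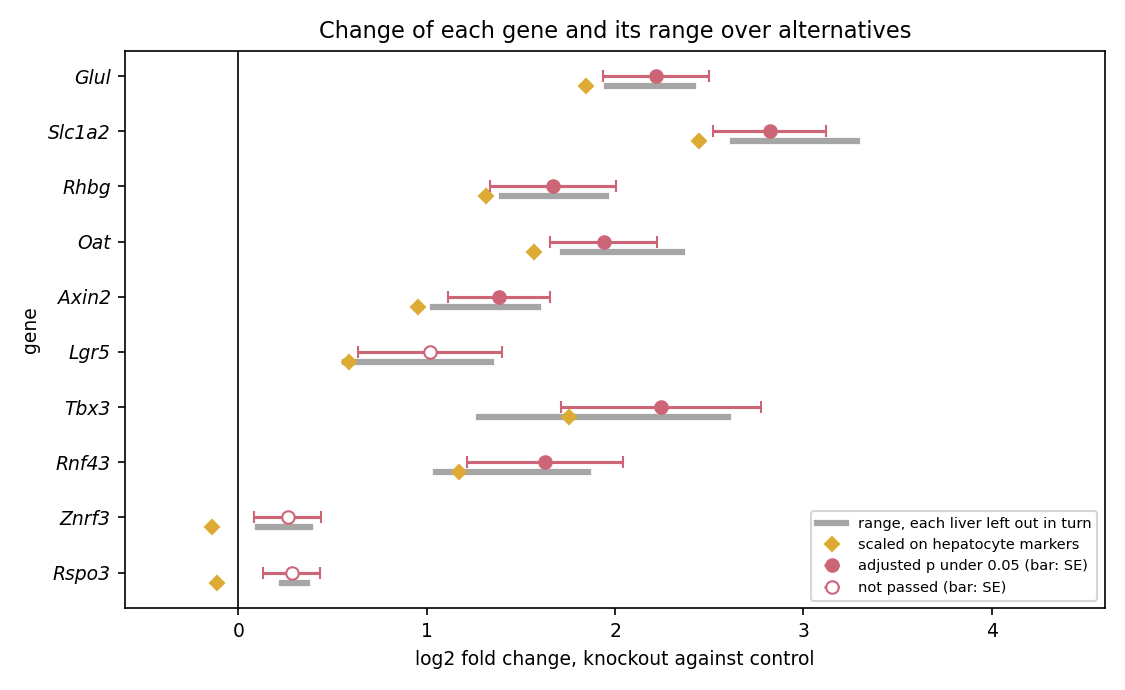
Log2 fold change, knockout against control, of each of the 10 genes with its SE (red), the range over the 6 fits that leave out 1 liver (grey bars) and the value with scaling on hepatocyte markers (diamonds). The 7 filled points passed the test, and Znrf3 and Rspo3 lie on the other side of 0 with hepatocyte marker scaling (−0.14 and −0.11).

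Expressed per kilobase of exon (RPKM), the controls held 110.2 of Oat and 75.4 of Glul, and the livers of these 2 genes overlapped each other. Both lay far above the other 8 members. Rspo3 (2.30), Rnf43 (2.02), Znrf3 (1.82), Tbx3 (1.70), Rhbg (1.40), Axin2 (1.304) and Slc1a2 (1.14 RPKM) followed in the controls, each overlapping its neighbour in the order. Lgr5, at 0.381 RPKM, was lowest and below every value of Slc1a2.

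In the knockout livers Oat (423 RPKM) and Glul (350 RPKM) again led and overlapped. Slc1a2 now stood next at 8.08 RPKM, beside Tbx3 (8.05), Rnf43 (6.23), Rhbg (4.44), Axin2 (3.40) and Rspo3 (2.80 RPKM), with each neighbour overlapping the next. Znrf3 (2.17 RPKM) and Lgr5 (0.774 RPKM) came last, each separated from the gene above it. Slc1a2 thus moved from rank 9 to rank 3, and Rspo3 from rank 3 to rank 8. With the longest transcript as the length, the knockout ranks of 3 genes differed, and Slc1a2 stood at rank 5.

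The 10 genes differed in how their levels were spread over the livers. Knockout liver 2 was the highest knockout for 8 of the 10, all but Glul and Rhbg, while it was the highest for 37.1% of all genes tested. Control liver 3 was the highest control for 9 of the 10, Rhbg being the exception, against 31.5% of all genes. Among knockouts the SD of log2 CPM was 0.19 for Glul, 0.20 for Oat and 0.26 for Slc1a2, but 1.15 for Tbx3, 0.76 for Rnf43 and 0.62 for Lgr5. The median over all genes tested was 0.21 in the knockouts and 0.19 in the controls. In the controls, Glul, Slc1a2, Rhbg, Oat, Lgr5 and Rnf43 all had an SD between 0.59 and 0.62, and Rspo3 had 0.08.

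**Figure D3:**
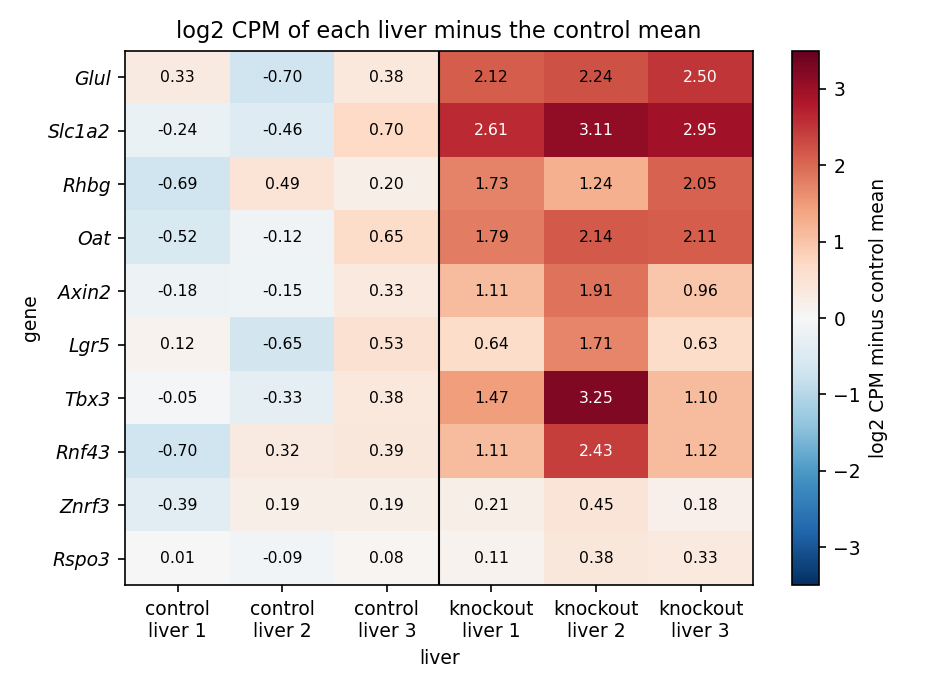
Log2 CPM of each of the 10 genes in each liver minus the mean of the controls, with the value printed in each cell. Glul, Slc1a2 and Oat are similarly high in all 3 knockouts, whereas Tbx3 reaches 3.25 in knockout liver 2 and 1.47 and 1.10 in the other 2.

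To see which genes followed Glul most closely, the SD of the log2 ratio to Glul over the 6 livers was taken for 8387 protein-coding genes with a mean of at least 10 CPM. The measure describes the livers and carries no test, since the livers also differ by group. The smallest SDs were those of Slc22a30 (0.36), an organic anion transporter family gene, Gabbr2 (0.37), a GABA-B receptor subunit, and Dpys (0.38), dihydropyrimidinase of pyrimidine breakdown. Among the other members Slc1a2 ranked 16 (0.48) and Oat 25 (0.51). Axin2 (0.73) ranked 144, Tbx3 (0.84) 280, Rnf43 (0.92) 475 and Znrf3 (1.23) 2764. Rhbg, Lgr5 and Rspo3 were below 10 CPM and were not ranked.

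The rest of the Wnt pathway held both higher and lower genes. Of 82 further pathway genes 63 were tested, of which 9 were higher and 10 lower by edgeR, with a median log2 of 0.04. That is 14.3% and 15.9%, near the 11.9% and 13.1% of all genes. The 10 lower genes include Cd44, which is the deleted gene. The 9 became 4 without control liver 1 or knockout liver 1 and 5 without control liver 2 or knockout liver 2, and the 10 became 6 without control liver 2. The balance depended on the scaling, with 4 higher and 14 lower with library totals and 3 and 16 with hepatocyte marker scaling. Among 9 tested ligands and secretion factors, Wnt5b (log2 0.80, adjusted p = 0.00643) and Porcn (log2 0.84, adjusted p = 0.0174) rose. Porcn adds the lipid that Wnt proteins need. Wnt4 (log2 −1.18, adjusted p = 0.00902), Wnt9a (log2 −0.98) and the Wnt carrier Wls (log2 −0.66) fell. Wnt2 (5.08 ± 1.85 and 5.42 ± 1.12 CPM) and Wnt9b (3.37 ± 1.41 and 4.20 ± 1.70 CPM), the ligands best known from central vein endothelium, did not pass. With library totals 1 ligand or secretion gene was higher, and with hepatocyte marker scaling 0 were. Porcn missed the threshold without control liver 1 (adjusted p = 0.0515) or knockout liver 1 (adjusted p = 0.0523). Wnt9a did so in 5 of the 6 fits that left out 1 liver (not without control liver 3), and Wls without control liver 2 or 3 or knockout liver 1 or 3. Wnt9a, Wls, Wnt2 and Wnt9b were named after their values were seen.

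Among 12 tested receptors and co-receptors 5 were higher (41.7%), where 11.9% of all genes tested were higher and 13.1% lower. Fzd8 rose from 7.73 ± 1.72 to 29.97 ± 6.12 CPM (log2 1.96, SE 0.21, edgeR adjusted p = 0.000869) and Fzd4 from 27.2 ± 7.11 to 58.3 ± 16.1 CPM (log2 1.10, adjusted p = 0.0135). Lgr4, a relative of Lgr5, rose from 36.9 ± 1.22 to 48.6 ± 4.36 CPM (log2 0.40, adjusted p = 0.0314), but stood at −0.01 with hepatocyte marker scaling. Fzd7 and Ror1, named after their values were seen, completed the 5, and 0 were lower by edgeR (0 at an unadjusted p under 0.05, and 0 by DESeq2 and limma-voom). With library totals or hepatocyte marker scaling 2 were higher, and with the latter 1 was lower (Fzd6, log2 −1.05, adjusted p = 0.0196, named after its value was seen). Leaving out control liver 1, 2 or 3 or knockout liver 1 or 2 reduced the 5 to 2, with Lgr4, Fzd7 and Ror1 lost in each case, and Ror1 was also lost without knockout liver 3 (adjusted p = 0.0569).

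Of 26 tested genes of beta-catenin signal transduction, Amer1 was higher (log2 0.55, adjusted p = 0.0496) and Csnk1e lower (log2 −0.58, adjusted p = 0.0125). That is 3.85% in each direction, where 11.9% of all genes tested were higher and 13.1% lower. Amer1 kept its call in 1 of the 6 fits that left out a liver (without knockout liver 3) and did not pass by DESeq2 (adjusted p = 0.0537), and Csnk1e missed it without control liver 2 (adjusted p = 0.0569). Library totals gave 5 lower and hepatocyte marker scaling 4, each with 0 higher, and 2 were lower without control liver 1. Ctnnb1, the beta-catenin gene itself and named after its value was seen, was at 230 ± 18.7 and 232 ± 8.01 CPM. Among 7 tested inhibitors, Notum, a secreted enzyme that strips the lipid from Wnt proteins and is itself a pericentral target, rose from 13.9 ± 3.21 to 45.1 ± 16.8 CPM (log2 1.69, adjusted p = 0.00423). The secreted inhibitors Frzb (log2 −1.69, adjusted p = 0.00116) and Dkk3 (log2 −1.20, adjusted p = 0.00138) fell. Of the 7 inhibitors, 14.3% were thus higher and 28.6% lower. Of 12 tested targets known from other tissues 4 were lower: Cd44, which is the deleted gene, Fosl1 (log2 −3.40), Jun (log2 −1.53) and Sox4 (log2 −1.51). Notum, also counted among the inhibitors, was the 1 of these 12 targets that rose (8.33%). Sp5, a transcription factor gene, did not pass by edgeR (log2 1.48, adjusted p = 0.0695), but passed by DESeq2 (adjusted p = 0.026), by limma-voom, with no filter and without control liver 3 (log2 2.44, adjusted p = 0.00959), which made 2 higher. Without control liver 2 the log2 value of Fosl1 was −2.73. Sox4 kept its call in 1 of the 6 fits that left out a liver, without knockout liver 2 (log2 −2.13). Jun, Sox4 and Sp5 were named after their values were seen.

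Other hepatocyte genes of both zones included many that were higher. Over all genes tested, 11.9% were higher and 13.1% lower. Of 20 further pericentral genes 12 were higher and 0 lower (0 lower at an unadjusted p under 0.05 and by DESeq2 and limma-voom), with a median log2 of 1.78. They included the P450 genes Cyp2c37 (113 ± 27.1 to 988 ± 165 CPM, adjusted p = 0.000211) and Cyp2c54 (log2 3.33, adjusted p = 0.000565) and the nuclear receptor gene Nr1i3 (log2 2.16, adjusted p = 0.000414). Of 22 periportal genes, which lie at the opposite end of the lobule, 11 were higher and 1 (Cdh1) lower, with a median log2 of 0.81. G6pc, Cyp2f2 and Hal rose by log2 values of 1.78, 1.84 and 1.53. Without control liver 1, 1 pericentral and 2 periportal genes were lower, and 5 periportal genes were lower with library totals or hepatocyte marker scaling. The difference between the zones was not tested.

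Genes that handle glutamine, ammonia, ornithine and glutamate moved both ways: 6 of 22 were higher and 5 lower, with a median log2 of 0.16 (3 lower without control liver 1 or 3 or knockout liver 1, and 2 higher and 8 lower with hepatocyte marker scaling). These counts are 27.3% and 22.7%, against 11.9% and 13.1% of all genes tested. Prodh, which starts proline breakdown towards glutamate, rose from 82.8 ± 25.4 to 304 ± 122 CPM (adjusted p = 0.0049). Aldh18a1, which makes the proline precursor from glutamate, fell from 25.0 ± 5.31 to 7.30 ± 1.44 CPM (adjusted p = 0.00108).

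**Figure D4:**
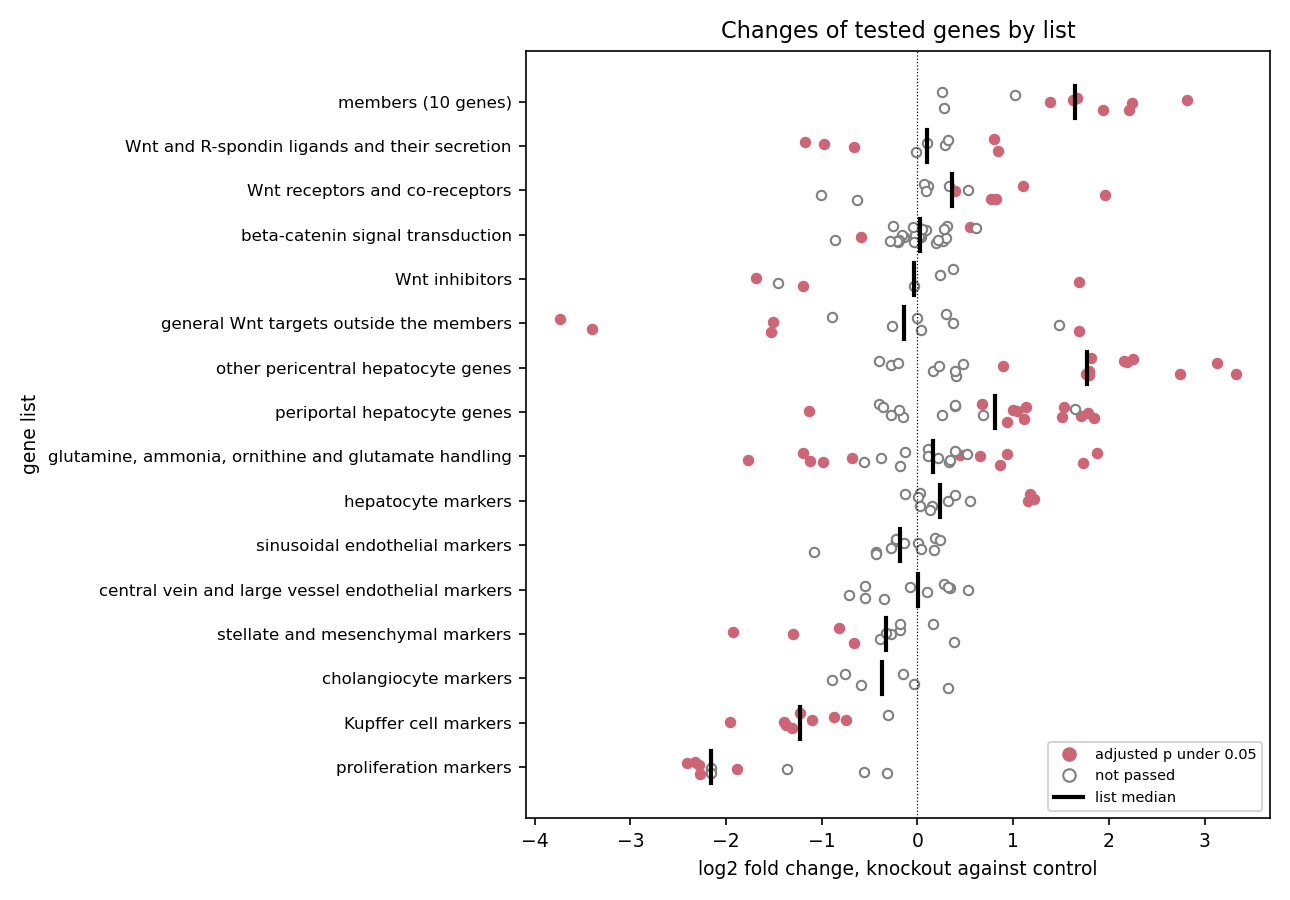
Log2 fold change of each tested gene by list, with genes at an adjusted p under 0.05 filled and black lines at the list medians. The medians are 1.65 for the 10 genes, 1.78 and 0.81 for the other pericentral and the periportal genes, and between −0.14 and 0.37 for the 5 Wnt pathway lists.

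Markers of other cells were read beside these values. The shares over all genes tested, 11.9% higher and 13.1% lower, apply to each marker list below. Of 12 hepatocyte markers 3 were higher (Apoa2, Ttr and Serpina1c, the last not without control liver 1 or 3), and their summed level ran from 95795 to 108692 CPM in the controls and from 116262 to 154535 CPM in the knockouts. When libraries were scaled on these markers, the same 7 members still passed, with log2 values from 0.95 (Axin2) to 2.44 (Slc1a2), relative to a median of −0.41 over all genes. Summed Kupffer cell markers fell outside the control range of 1222 to 1300 CPM, to 359 to 767 CPM, lowest in knockout liver 2, and 8 of 9 markers were lower (5 of 9 without control liver 1 or 2, and 4 without knockout liver 1). Lyz2 was lower too (216 ± 20.04 to 48.3 ± 16.0 CPM), but it is the gene that carries Cre in the knockouts only. The part of the Cre allele in the fall of Lyz2 was not tested.

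Rspo3 is known from venous endothelium, so endothelial markers were read beside it. Of 10 central vein and large vessel markers, Rspo3, Wnt2 and Wnt9b among them, 0 passed by edgeR (0 at an unadjusted p under 0.05, and 0 by DESeq2 and limma-voom), and their sums were 52.0 to 74.3 CPM in the controls and 42.6 to 83.5 CPM in the knockouts. Without knockout liver 2, or with hepatocyte marker scaling, 1 of the 10 was lower. The nearest to passing besides Rspo3 was Cdh13 (log2 0.53, adjusted p = 0.251). Of 12 sinusoidal endothelial markers 0 passed by edgeR (2 lower at an unadjusted p under 0.05, 1 lower by DESeq2 and 1 by limma-voom), led by Lyve1 (log2 −1.08, adjusted p = 0.0609) and Cdh5 (log2 −0.44, adjusted p = 0.0816). The sinusoidal count depended on the scaling: 6 of the 12 were lower with library totals, 7 with hepatocyte marker scaling and 2 with the replicate block. Without knockout liver 2, 3 of the 12 were lower, Lyve1 among them (log2 −1.72, adjusted p = 0.00109). The sums overlapped, at 387 to 440 and 328 to 436 CPM.

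Stellate and mesenchymal markers were lower for 4 of 11 (Col1a1, Col1a2, Pdgfrb and Des, the last named after its value was seen), and their sums ran from 633 to 735 CPM in the controls and from 521 to 554 CPM in the knockouts. Des did not pass without control liver 2 or 3 or knockout liver 1. Of 6 cholangiocyte markers 0 passed by edgeR (1 lower at an unadjusted p under 0.05, 0 by DESeq2 and limma-voom), with Krt19 (log2 −0.76) and Sox9 (log2 −0.89) the nearest. Without knockout liver 2, Sox9 passed (log2 −1.63, adjusted p = 0.00996). Of 10 proliferation markers 5 were lower, including Cdk1, Mcm5 and Top2a, and without control liver 2 or 3 or knockout liver 1 or 2 there were 2, 1, 2 and 3 (3 by limma-voom and 8 with no filter). With hepatocyte marker scaling 9 proliferation, 7 stellate and 2 cholangiocyte markers were lower, and with library totals 6, 6 and 1. No marker in these lists was at 0 in every liver. The part of these other cells in the changes of the 10 genes was not tested.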

How the data were processed

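Gene counts of 6 whole livers, 3 per group, were analysed. What the authors deposited are unnormalised read counts for each Ensembl gene, 1 column per mouse. Per the submitters' processing notes, the build was GRCm38.p6 and the tools were featureCounts 1.5.0-p3, StringTie 1.3.3b and HISAT2 2.0.5, without stated roles. The sources used here do not give the strand setting. Library totals were 18428224 to 24042917 counts, so 3 counts equal 0.119 to 0.148 CPM.

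Symbols and coordinates came from GENCODE M21 (GRCm38), matching 54495 of 54532 genes. Genes were filtered with filterByExpr, scaled by TMM and tested in edgeR 4.0.16 (quasi-likelihood test, R 4.3.3, group as the only term). Benjamini-Hochberg adjustment ran over 14758 genes, with a threshold of 0.05. SE is the log2 value divided by the square root of F. The members and gene lists were chosen with earlier results of these data known. Named were all members, Cd44 and Lyz2, up to 3 passing genes per list by smallest p (2 where none passed) and the 3 genes most like Glul. A gene chosen by this rule is not reported here. Alternatives were DESeq2 1.42.0, limma-voom (limma 3.58.1), other scalings, filters and thresholds, a replicate block and leaving out each liver. In tests on simulated data, false calls exceeded the nominal share and many moderate changes were missed. Figures used matplotlib 3.10.9 (Python 3.11.15).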

Additional observations from a re-analysis of the deposited data

How the results depend on the processing

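Glul, Slc1a2, Rhbg, Oat and Axin2 passed in the same direction under all 17 alternatives, and the number of members called higher ran from 5 to 8 with 0 lower. At an adjusted p under 0.01, Tbx3 (log2 2.24) and Rnf43 (log2 1.63) no longer passed. Leaving out 1 liver gave 1.28 to 2.60 for Tbx3 and 1.05 to 1.85 for Rnf43, and 5 to 7 members called. Lgr5 passed with DESeq2 (1.03), with no filter (1.02) and at a threshold of 0.1 (1.02). Over all genes the median log2 was −0.26 with library totals and −0.41 with hepatocyte marker scaling, where Lgr4 turned to −0.0085.

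Against 1751 higher and 1933 lower genes, library totals gave 904 and 3698, hepatocyte marker scaling 598 and 4077, and a threshold of 0.01 gave 724 and 791. Leaving out 1 liver gave 1086 to 1576 higher and 1183 to 1837 lower, the fewest higher without control liver 2 and the fewest lower without knockout liver 1. The 9 higher pathway genes became 4 with library totals, 3 with hepatocyte marker scaling, 3 at 0.01 and 4 to 8 with 1 liver left out. The 10 lower became 16 with hepatocyte marker scaling, 6 at 0.01 and 6 to 9 with 1 liver left out. The 12 other pericentral genes became 7 at 0.01, and 1 was lower with hepatocyte marker scaling and 0 to 1 with 1 liver left out. The 11 higher periportal genes became 7 at 0.01, and the 1 lower became 5 with library totals or hepatocyte marker scaling, 2 at 0.1 and 1 to 2 with 1 liver left out. For glutamine and ammonia handling, hepatocyte marker scaling gave 2 higher and 8 lower, a threshold of 0.01 gave 2 and 3, and leaving out 1 liver gave 3 to 5 lower. The cause of these shifts was not tested.

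The labels do not say whether mouse numbers pair the livers. Correlations of deviations were −0.03, 0.04 and −0.02 for equal numbers 1 to 3, and −0.09 to 0.09 for unequal numbers. With 3 livers per group, these cannot show whether mice were paired. With the number as a replicate block, 7 members were called, and Glul stood at 2.28. Low counts limit Rhbg and Lgr5 most, with 39 and 48 counts in their lowest livers.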
